A study of Mus musculus with 8 samples.

Results

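The epithelial sodium channel and its regulators comprise 9 genes of the 26008 genes in the table of the colon, and all 9 were among the 19127 genes tested. They were chosen by name: *Scnn1a*, *Scnn1b* and *Scnn1g*, coding for the alpha, beta and gamma subunits, *Nedd4l*, *Prss8* and *St14*, which act on the channel, and *Atp1b1*, *Kcnma1* and *Cftr*, whose products move sodium, potassium or chloride in the same tissue. The choice was made with the difference between the genotypes known. For the members this difference is therefore given as a description, and no conclusion is drawn from intervals or tests of it.

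The channel takes up sodium from the lumen through the apical membrane of surface cells of the distal colon, and the sodium pump extrudes it at the basolateral side. Proteases such as prostasin and matriptase activate the channel, NEDD4-2 marks it for removal from the membrane by ubiquitination, and aldosterone, through the mineralocorticoid receptor, raises its activity. In the colon aldosterone is known to act to a large extent on the beta and gamma subunit genes, while the alpha subunit gene is expressed more constantly.

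Colonic RNA was sequenced in 4 Penk-/- and 4 Penk+/+ bone marrow chimeras, with 1 library per mouse. The recipients of both groups were male C57BL/6JRj mice, wild-type for proenkephalin and lethally irradiated, and the genotype is that of the marrow donor. *Penk* was thus deleted in blood-derived cells, whereas epithelium, muscle and neurons remained those of a wild-type host, as can some radioresistant leukocytes. The values are normalized counts, that is reads divided by a size factor of each library, and their error is given as the SD over 4 mice.

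The libraries held 33.1 M to 50.7 M reads (median 38.5 M). *Penk* itself averaged 541 ± 73.2 normalized counts in the Penk+/+ group and 528 ± 67.5 in the Penk-/- group, and its values overlapped between the groups. All 8 epithelial, all 8 smooth muscle and all 7 posterior HOX markers were above 0 in each library. Genes of male accessory glands stood apart: *Pbsn*, coding for probasin, was highest in Penk-/- replicate 3 (105658 normalized counts) and Penk+/+ replicate 4 (111024), and was listed at 0 in Penk-/- replicate 1 and Penk+/+ replicate 3. Over the 5 genes of this list, of which 3 were above 0 in all libraries, the sum ranged from 11717 to 221003 in Penk-/- and from 10989 to 232949 in Penk+/+ chimeras. The low ends of these sums were almost all *Spink1*, which did not follow *Pbsn* and was lowest, at 7372 normalized counts, in Penk-/- replicate 3. *Tgm4*, coding for the prostate transglutaminase, lay between 54.2 normalized counts in Penk+/+ replicate 3 and 106655 in Penk+/+ replicate 4. Member values without the 2 libraries with the most *Pbsn* are given beside the results.

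*Scnn1g* (ENSMUSG00000000216) and *Scnn1b* (ENSMUSG00000030873) are neighbours on chromosome 7 of GRCm39. *Scnn1g* lies on the plus strand at chr7:121333545-121367755. *Scnn1b* lies on the same strand at chr7:121463946-121517737. A gap of 96.19 kb separates them, and 0 tested genes lie within it. The 250 bases before the RefSeq start site of each gene are shown because these subunit genes were the pair of members whose values did not overlap between the genotypes. These start sites need not be the gene starts given above for GRCm39. The sequences are those of RefSeq on GRCm38.p6, on the gene strand and 5′ to 3′, at chr7:121734229-121734478 for *Scnn1g* and chr7:121864788-121865037 for *Scnn1b*. Capitals mark the GC box, GGGCGG or, on the other strand, CCGCCC.
Scnn1g: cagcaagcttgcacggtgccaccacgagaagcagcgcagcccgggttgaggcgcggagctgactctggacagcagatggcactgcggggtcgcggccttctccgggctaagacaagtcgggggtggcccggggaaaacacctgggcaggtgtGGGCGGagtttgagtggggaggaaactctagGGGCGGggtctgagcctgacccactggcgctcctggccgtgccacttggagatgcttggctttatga
Scnn1b: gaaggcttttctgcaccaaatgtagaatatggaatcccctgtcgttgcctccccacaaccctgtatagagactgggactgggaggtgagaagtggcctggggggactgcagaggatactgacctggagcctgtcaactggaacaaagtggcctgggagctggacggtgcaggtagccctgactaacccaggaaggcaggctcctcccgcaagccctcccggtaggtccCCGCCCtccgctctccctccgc

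The window of *Scnn1g* held the GC box at -98 and -67 from the RefSeq start site, and that of *Scnn1b* at -22. Its letters were found, on either strand, in 32.7% of the 32851 windows of the same length. Windows were given for 5 of the 9 members. The GC box was in each of them, with 2 matches in *Atp1b1*, 6 in *Cftr* and 3 in *Kcnma1*. Overlapping matches were each counted, as at -192, -188 and -184 in *Cftr* and at -140 and -136 in *Kcnma1*. GC content was 65.2% for *Scnn1g* and 60.8% for *Scnn1b*, against a median of 52.4% over all windows. Both strands were also searched for the palindrome of corticosteroid receptors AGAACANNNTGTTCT (0.00913% of all windows), its half-site AGAACA (16.1%), which is a part of the palindrome, the E-box CACGTG (6.02%) and the TATA box TATAAA (12.4%). None of these 4 strings of letters was in the windows of the 5 members.

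Among the subunits, *Scnn1g* differed most between the genotypes and *Scnn1b* less, whereas *Scnn1a* overlapped. *Scnn1g*, coding for the gamma subunit, had 89.9, 135, 143 and 140 normalized counts in replicates 1 to 4 of the Penk-/- chimeras. In the Penk+/+ chimeras it had 310, 335, 417 and 369 normalized counts. Every Penk-/- library was therefore below every Penk+/+ library, and replicate 1 of the Penk-/- chimeras was the lowest of all. The means were 127 ± 25.1 and 358 ± 46.4 normalized counts, a ratio of 0.354. The log2 fold change was -1.50, with a standard error of 0.17 and a 95% interval from -1.88 to -1.12. These values rest on 89 to 197 reads per library in Penk-/- and 249 to 430 in Penk+/+ chimeras.

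*Scnn1b*, coding for the beta subunit, had 479, 451, 440 and 510 normalized counts in replicates 1 to 4 of the Penk-/- chimeras. In the Penk+/+ chimeras the values were 582, 644, 618 and 731. The groups did not overlap here either, but they lay closer together than for *Scnn1g*. The means were 470.0 ± 31.6 and 644 ± 63.1 normalized counts, a ratio of 0.732, and the log2 fold change was -0.45 (standard error 0.09, 95% interval -0.66 to -0.25). *Scnn1b* shares its locus with *Cog7* on the opposite strand, and the strand setting used for counting is not given in the sources used here. *Cog7* had a log2 fold change of -0.07.

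*Scnn1a* (ENSMUSG00000030340, chr6:125297622-125321906, plus strand), coding for the alpha subunit, had 8717, 7423, 5160 and 7922 normalized counts in replicates 1 to 4 of the Penk-/- chimeras. In the Penk+/+ chimeras it had 8998, 8029, 6694 and 7969 normalized counts. The groups overlapped, and the lowest value of each was in replicate 3. The log2 fold change was -0.14 with a standard error of 0.16, and the 95% interval ran from -0.49 to 0.21. Without the 2 libraries with the most *Pbsn* the log2 fold changes were 0.03 for *Scnn1a*, -0.36 for *Scnn1b* and -1.55 for *Scnn1g*.

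**Figure D1:**
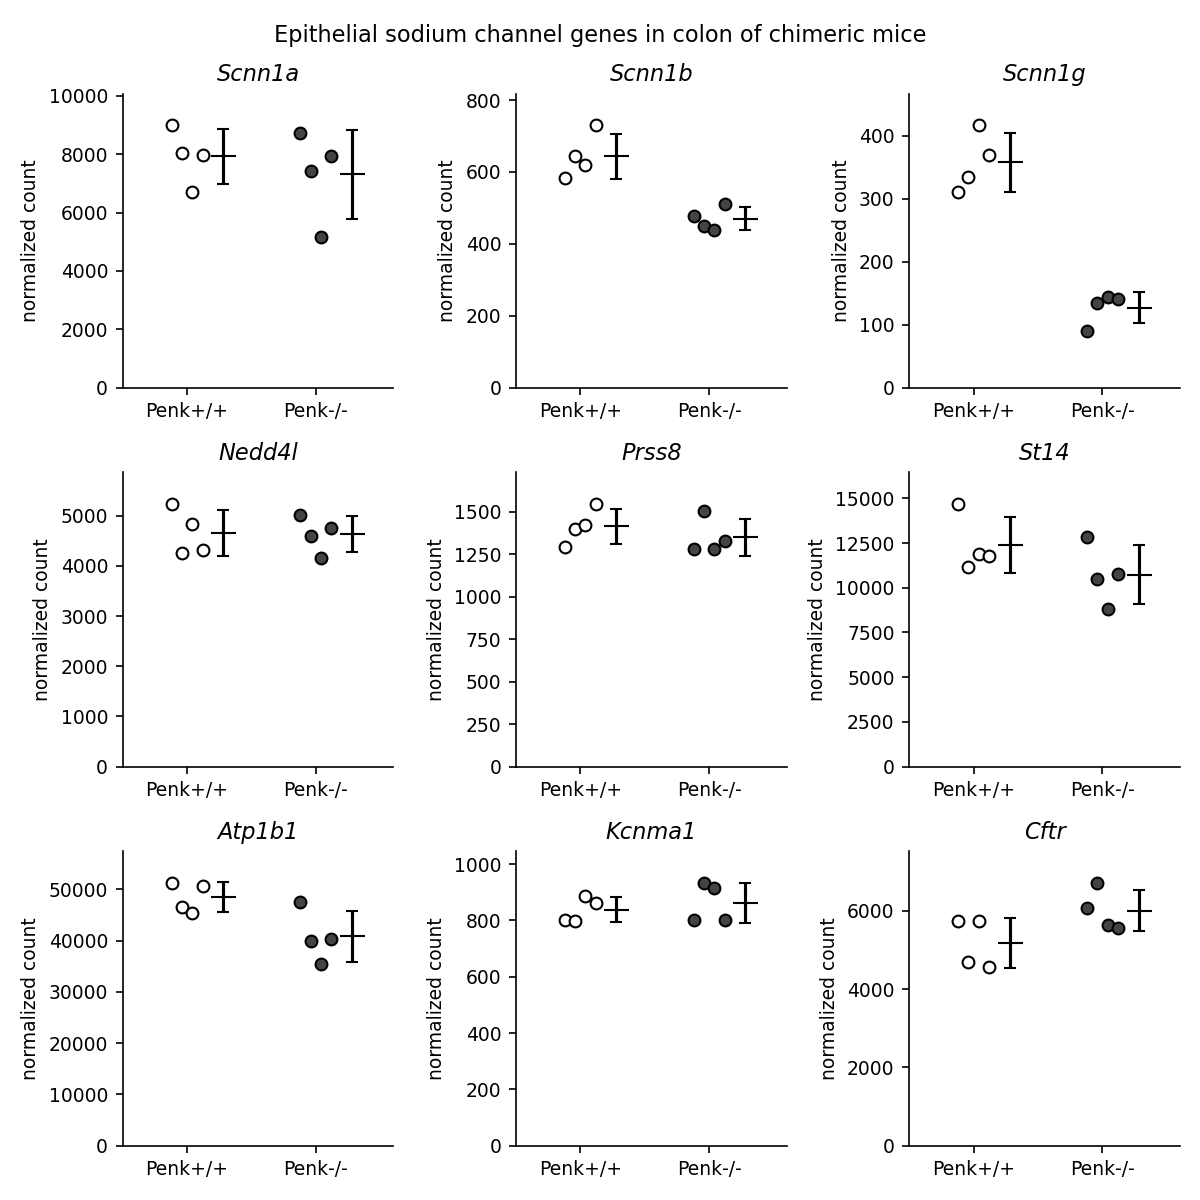
Normalized counts (vertical axes, from 0) of the 9 members in each of the 4 Penk+/+ (open circles) and 4 Penk-/- (filled circles) chimeras, with the mean and SD beside the points. The groups are apart for *Scnn1g*, at 89.9 to 143 against 310 to 417, and for *Scnn1b*, at 440 to 510 against 582 to 731, and they overlap for the other 7 members.

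The groups did not overlap for 2 of the 9 members, as for 5.63% of all genes tested. Both were lower in Penk-/- chimeras, as were 2.74% of all genes, and 0 were higher, as were 2.89%. Log2 fold changes were above 0 for 2 members, against 51.1% of all genes, and beyond 1 in size for 1, *Scnn1g*, against 0.622%. At an adjusted p below 0.05 limma called 0 of 19127 genes (0%) and therefore 0 members. The authors reported a few differentially expressed genes from their own DESeq2 analysis of these libraries, which was not repeated here. At an unadjusted p below 0.05 limma called 9.63% of all genes, 5.33% as lower and 4.30% as higher, among them 3 members as lower and 0 as higher. With voom on the recovered reads 0 genes were called after adjustment, and 2 (0.0105%) when the libraries were weighted. Since the contrast served to choose the members, nothing is read from these counts. In RNA of whole biopsies, fewer cells of a type and less RNA per cell cannot be told apart.

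Levels of different genes were compared as TPM, the usual measure of transcript abundance scaled to gene length and library, from reads and the length of the union of exons. The channel subunits were present in very unequal amounts. *Scnn1a* reached 192 ± 33.1 TPM in Penk-/- and 198 ± 15.7 TPM in Penk+/+ chimeras. *Scnn1b* reached 17.4 ± 1.11 and 22.7 ± 2.44 TPM, and *Scnn1g* 4.36 ± 1.02 and 11.6 ± 2.01 TPM. The gamma subunit gene was thus the least abundant of the 3 in all 8 libraries. Its share of the summed TPM of the subunits was 1.22% to 3.10% in Penk-/- and 3.91% to 6.64% in Penk+/+ chimeras, and these ranges did not overlap.

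Taken as ratios within a library, the TPM of *Scnn1a* over *Scnn1g* ranged from 28.0 to 75.2 in Penk-/- and from 12.5 to 22.5 in Penk+/+ chimeras. The ratio of *Scnn1b* to *Scnn1g* ranged from 3.34 to 5.79 and from 1.61 to 2.15. Neither pair of ranges overlapped. These ratios and the share of *Scnn1g* hold the difference that was known when the members were chosen, and nothing further is read from them. The ratio of *Scnn1a* to *Scnn1b* was 8.37 to 13.0 in Penk-/- and 7.72 to 11.0 in Penk+/+ chimeras, and here the ranges overlapped.

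**Figure D2:**
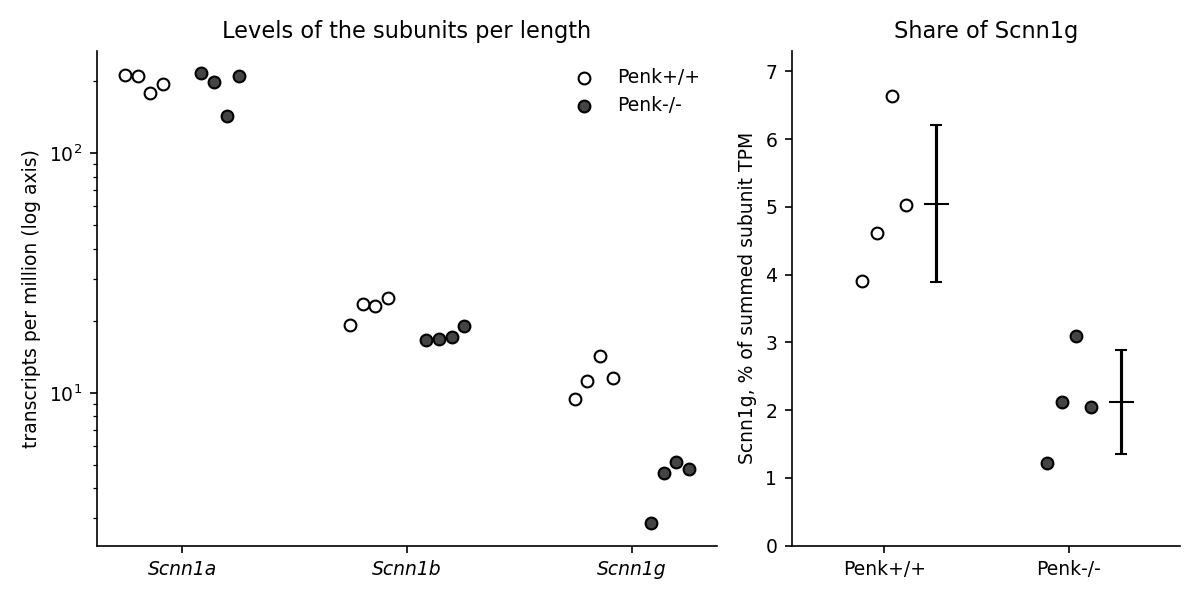
Left, TPM (log axis) of the 3 subunit genes in each library of the Penk+/+ (open circles) and Penk-/- (filled circles) chimeras. Right, *Scnn1g* as a percentage of the summed TPM of the subunits, from 0, with mean and SD (n = 4), at 1.22% to 3.10% in Penk-/- and 3.91% to 6.64% in Penk+/+ chimeras.

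Across all members, mean TPM over the 8 libraries was highest for *Atp1b1* at 976. *Scnn1a* (195) and *St14* (159) followed, then *Prss8* (78.7) and *Cftr* (76.8). *Nedd4l* (22.4) came next, with *Scnn1b* from 16.6 to 24.97 TPM over the libraries, and last *Scnn1g*, from 2.87 to 14.3 TPM, with *Kcnma1* (mean 5.34). The ranges over the libraries overlapped within each of these pairs of neighbours and not between one pair and the next. With the length of the longest transcript in place of the exon union, *Nedd4l*, whose exon union spans 22101 bases, moved to 45.4 TPM and *Scnn1b* to 16.1 TPM. *St14* at 263 TPM then stood above *Scnn1a* at 175, and *Cftr* at 71.1 above *Prss8* at 60.1, so that the order within these pairs depends on the length used.

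The 3 genes acting on the channel overlapped between the genotypes. *Nedd4l* on chromosome 18, coding for the ubiquitin ligase NEDD4-2, lay between 4264 and 5233 normalized counts in the Penk+/+ group and between 4167 and 5016 in the Penk-/- group. The log2 fold change of *Nedd4l* was -0.01 (95% interval -0.20 to 0.18). *Prss8* on chromosome 7, coding for the channel-activating protease prostasin, lay between 1294 and 1545 in Penk+/+ and between 1279 and 1503 in Penk-/- libraries. Its genotypes differed by -0.07 on the log2 scale (-0.24 to 0.11). For both genes the values of the groups covered nearly the same range. *St14* on chromosome 9, coding for matriptase, the protease that activates prostasin, lay between 11152 and 14680 in Penk+/+ and between 8836 and 12838 in Penk-/- libraries, a difference of -0.21 on the log2 scale (-0.48 to 0.06). That of *St14* was -0.12 without Penk-/- replicate 3 and -0.12 without Penk+/+ replicate 1. Without the 2 libraries with the most *Pbsn* the log2 fold changes of *Nedd4l*, *Prss8* and *St14* were 0.0072, -0.0020 and -0.14. These 3 loci overlap genes on the opposite strand, among them *Kat8* at *Prss8*.

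The partner transporters did not move in a single direction. *Atp1b1* on chromosome 1, coding for the beta subunit of the sodium pump, had 47543, 40013, 35469 and 40330 normalized counts in replicates 1 to 4 of the Penk-/- chimeras. In the Penk+/+ chimeras the values were 51253, 46606, 45339 and 50665. Only replicate 1 of the Penk-/- chimeras reached into the range of the other group, and the log2 fold change was -0.25 (95% interval -0.47 to -0.03). *Cftr* on chromosome 6, the cyclic AMP-activated chloride channel, had 6061, 6710, 5648 and 5568 normalized counts in the Penk-/- group and 5747, 4699, 5730 and 4562 in the Penk+/+ group. Its groups overlapped, and the log2 fold change was 0.21 (-0.00 to 0.43). *Kcnma1* on chromosome 14, the large-conductance potassium channel of colonic epithelium and smooth muscle, lay between 799.7 and 887 normalized counts in the Penk+/+ and between 799.9 and 933 in the Penk-/- group, a difference of 0.04 on the log2 scale (-0.14 to 0.22). Leaving out the 2 libraries with the most *Pbsn* gave log2 fold changes of -0.17 for *Atp1b1*, 0.18 for *Cftr* and 0.02 for *Kcnma1*. The loci of these transporters also overlap other genes, among them *Nme7* at *Atp1b1* and, on the same strand, *Gm15595* at *Cftr*.

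Other genes of the pathway were taken from 6 lists with 57 genes, of which 56 were tested and *Kcnmb4* was below the filter. limma called 0 of the 56 at an adjusted p below 0.05, where it called 0% of all genes, and voom called 0 as well. At an unadjusted p below 0.05, 6 were lower (5.33% of all genes were) and 3 were higher (4.30% of all genes were). Their median log2 fold change was 0.02, beside 0.01 over all genes tested, and 26 were below 0 and 30 above. Like the members, the lists were written with results of these data known.

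Among the genes of ubiquitination and kinases, *Sgk2*, a kinase related to the aldosterone-induced *Sgk1*, had 1340 ± 375 normalized counts in the Penk-/- group and 2021 ± 281 in the Penk+/+ group (limma log2 fold change -0.62, adjusted p = 0.353). *Cnksr3*, a scaffold of the complex that regulates the channel, had 962 ± 122 and 1263 ± 121 normalized counts (limma log2 fold change -0.40, adjusted p = 0.343). *Usp10*, coding for a deubiquitinase, was above the other group in every Penk-/- library, as 2.89% of all genes were (limma log2 fold change 0.29, adjusted p = 0.339). *Sgk1* itself had 5820 ± 1998 and 5225 ± 763 normalized counts. None of the 15 genes of this list passed the adjusted test.

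Of the 6 genes of corticosteroid signalling 5 had a log2 fold change below 0 and 1 above, where 51.1% of all genes were above. *Nr3c2*, the mineralocorticoid receptor, had 6449 ± 1037 normalized counts in the Penk-/- group and 8094 ± 888 in the Penk+/+ group (limma log2 fold change -0.34, adjusted p = 0.45). *Hsd11b2*, which inactivates glucocorticoids and so leaves the receptor to aldosterone, had 7796 ± 638 and 8751 ± 142 (limma log2 fold change -0.17, adjusted p = 0.46). *Fkbp5*, a glucocorticoid-induced gene, had a limma log2 fold change of -0.32 (adjusted p = 0.591). At an unadjusted p below 0.05, 2 genes of the list were lower (5.33% of all genes were) and 0 higher (4.30% were), and 0 passed after adjustment.

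In the sodium pump list *Fxyd5* and *Fxyd4*, coding for small regulators of the pump, had limma log2 fold changes of 0.25 and -0.25 (adjusted p = 0.704 and 0.754). The potassium channel list held the gene with the smallest p of all 56. This was *Kcne3*, the partner of *Kcnq1* in the basolateral channel of colonic crypts, at 7462 ± 530 against 5412 ± 250 normalized counts (limma log2 fold change 0.46, adjusted p = 0.253). *Kcnn4*, the calcium-activated potassium channel, had a limma log2 fold change of 0.27 (adjusted p = 0.339). Both were above the other group in every Penk-/- library, as 2.89% of all genes were. *Kcnmb2*, a partner of *Kcnma1*, had only 28.0 ± 2.90 and 23.8 ± 4.68 normalized counts.

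The remaining 2 lists held no gene whose groups were apart. Of the proteolysis genes, the protease inhibitors *Spint1* and *Spint2* and the protease *Tmprss2* had limma log2 fold changes of -0.20, -0.19 and -0.19 (adjusted p = 0.643, 0.628 and 0.629). Of the other sodium and chloride transport genes, *Best2*, an anion channel of goblet cells, had -0.19, *Slc26a3*, the chloride-bicarbonate exchanger, -0.36, and *Clcn2*, a chloride channel, -0.26 (limma, adjusted p = 0.479, 0.647 and 0.65).

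**Figure D3:**
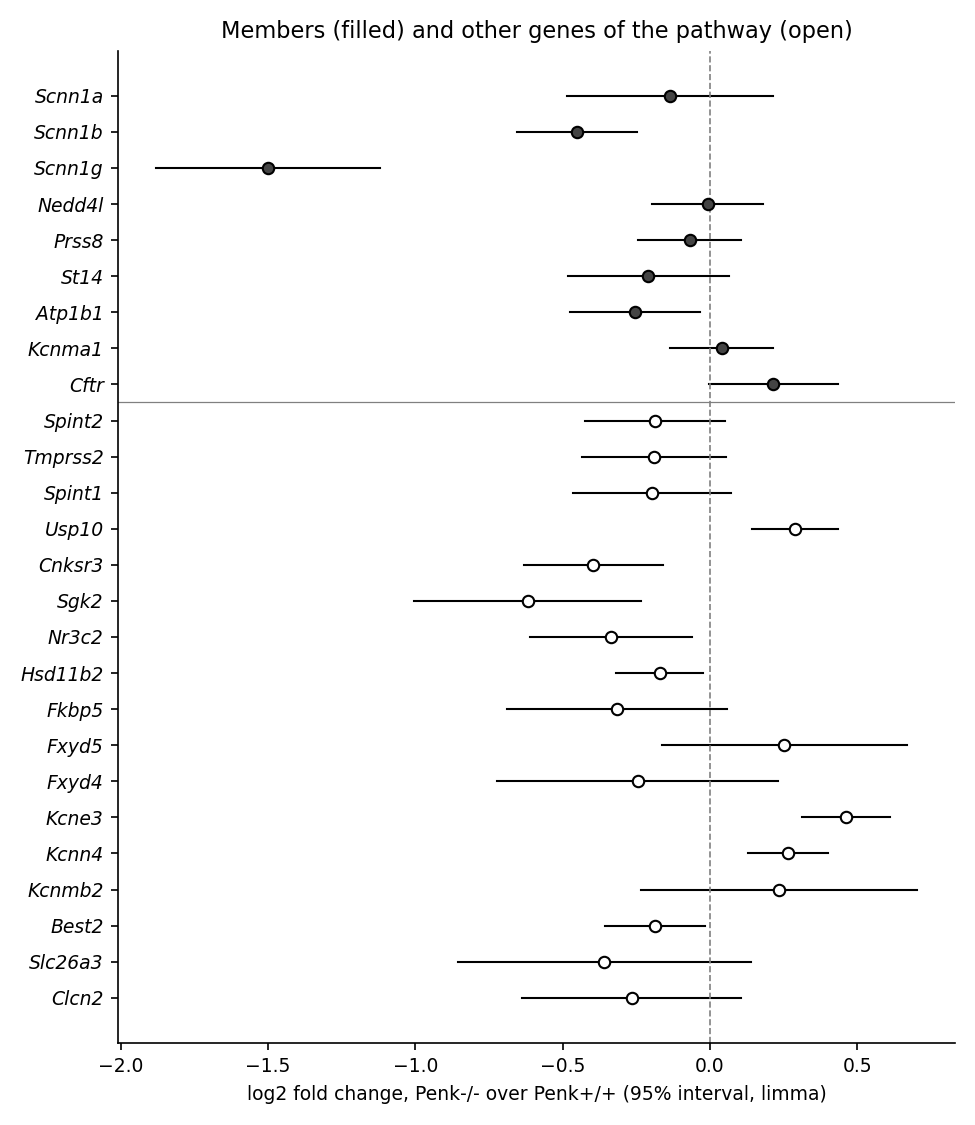
log2 fold changes of Penk-/- over Penk+/+ chimeras (horizontal axis, points) with 95% intervals from limma (lines) for the 9 members (filled) and the other genes of the pathway named in the text (open). *Scnn1g* lies at -1.50 and *Scnn1b* at -0.45, and the other genes lie between -0.62 (*Sgk2*) and 0.46 (*Kcne3*).

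Around the pair of subunit genes, 16 other genes within 500000 bases on either side were tested. Their log2 fold changes ran from -0.31 for *Chp2* to 0.45 for *Usp31*, with a median of 0.05. Of the 16 neighbours 0 were lower in each Penk-/- library, as 2.74% of all genes were, and 1 was higher in each, as 2.89% were. This was *Usp31*, the next tested gene before *Scnn1g*. These neighbours were named after their values were seen.

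The composition of the biopsies was followed with scores, the mean over a list of marker genes of the log2 value centred on each gene. The 8 epithelial markers had log2 fold changes below 0, all 8 of them, where 51.1% of all genes were above 0. Their sum ranged from 358348 to 485289 normalized counts in Penk-/- and from 445965 to 519965 in Penk+/+ chimeras. For epithelium the score in Penk-/- minus that in Penk+/+ chimeras was -0.17 (two-sided exact permutation test, p = 0.2). The smooth muscle score differed by 0.08 (exact permutation p = 0.714), with sums from 158983 to 269449 and from 167632 to 259352 normalized counts. Differences of -0.07 for interstitial cells of Cajal, -0.10 for enteric neurons, 0.02 for leukocytes, 0.06 for accessory gland and -0.03 for posterior HOX genes had exact permutation p of 0.429, 0.657, 0.914, 1 and 0.743. Adjusted over 8 scores each p was 0.99 or 1, and the 70 assignments of the libraries allow no p below 0.0286. With the epithelial score minus the smooth muscle score as a covariate, the log2 fold change was -1.63 for *Scnn1g*, -0.43 for *Scnn1b* and -0.01 for *Scnn1a*. It was -0.12 for *St14* and -0.18 for *Atp1b1*. The score comes from the same 8 libraries, and whether composition accounts for any of these differences was not tested.

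Covariation was examined within genotypes, on log2 values from which the mean of the genotype was subtracted, so that the difference between the groups does not enter. Points are 8 libraries, and the values of all genes in a library share its depth and its composition. Of the 36 pairs of members 18 had a Pearson r above 0, the median was 0.0027, and 0 pairs passed an adjusted p below 0.05. Positive and negative values of r were thus equally frequent among the members. The exact permutation within genotypes has 576 reorderings and can give no p below 0.00174.

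The highest r was that of *Nedd4l* and *St14* at 0.911 (exact permutation p = 0.00174, the smallest possible, adjusted over 36 pairs 0.0625). Spearman's rho was 0.905 (exact permutation p = 0.0035, adjusted 0.125), and r was 0.675 without the 2 libraries farthest from the median of *Nedd4l*. *Scnn1a* followed *Atp1b1* with r = 0.878 and *St14* with r = 0.824 (exact permutation p = 0.0295 and 0.0399, adjusted 0.287 for both, rho 0.857 and 0.905). Among *Scnn1a*, *St14*, *Atp1b1* and *Nedd4l* r ranged from 0.615 to 0.911, and none of their pairs passed the correction. Pairs outside these genes also fell in this range, *Nedd4l* with *Cftr* at 0.679 and *Scnn1g* with *Kcnma1* at 0.645.

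No pair of subunits passed the correction. For *Scnn1a* and *Scnn1b* r was 0.297 (exact permutation p = 0.45, adjusted 0.662, rho 0.095). It was -0.347 without the 2 libraries farthest from the median of *Scnn1a* and 0.644 with quantile normalization, so that its size and sign depend on these choices. For *Scnn1b* and *Scnn1g* r was 0.037 (exact permutation p = 0.915, adjusted 0.939, rho -0.095). Opposite signs appeared between *Scnn1g* and *Scnn1a*, with r = -0.703 (exact permutation p = 0.141, adjusted 0.389, rho -0.762), and between *Scnn1g* and *Atp1b1*, with r = -0.838 (exact permutation p = 0.0382, adjusted 0.287, rho -0.81). Without the 2 libraries farthest from the median of *Scnn1a* the first became -0.821. Without the 2 farthest from the median of *Scnn1g* the second became -0.331, so that it rests on those libraries.

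**Figure D4:**
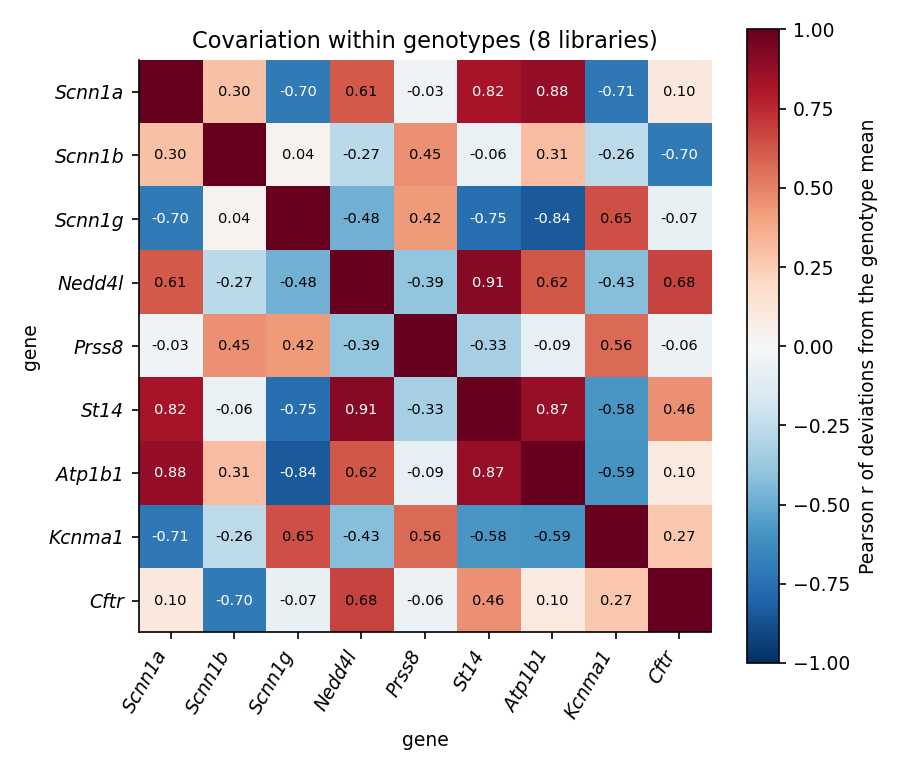
Pearson r (colour scale from -1 to 1) for each of the 36 pairs of members over the 8 libraries, after subtraction of the mean of each genotype. The highest r, 0.911, is that of *Nedd4l* and *St14*, and *Scnn1g* has its lowest r, -0.838, with *Atp1b1*.

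Beside the marker scores, *Scnn1a* followed the epithelial score (r = 0.956, exact permutation p = 0.0035, adjusted over 63 pairs 0.109, rho 0.905). Without the 2 libraries farthest from the median of that score, r was 0.893. *Scnn1a* ran opposite to the enteric neuron score (r = -0.957, exact permutation p = 0.00174, adjusted 0.109, rho -0.952). *Atp1b1* and *St14* followed the epithelial score with r = 0.909 and 0.884 (exact permutation p = 0.0104 and 0.0139, adjusted 0.219 for both, rho 0.952 and 0.81). *Scnn1g* had an r of -0.742 with the epithelial score (exact permutation p = 0.0816, adjusted 0.366, rho -0.81) and of 0.869 with the smooth muscle score (exact permutation p = 0.0295, adjusted 0.365, rho 0.833). The latter fell to 0.018 without the 2 libraries farthest from the median of the smooth muscle score. *Scnn1b* was nearest to neither, with r = 0.315 and -0.274 (exact permutation p = 0.41 and 0.498, adjusted 0.662 and 0.712, rho 0.333 and -0.286). In all, 0 of the 63 pairs passed an adjusted p below 0.05.

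**Figure D5:**
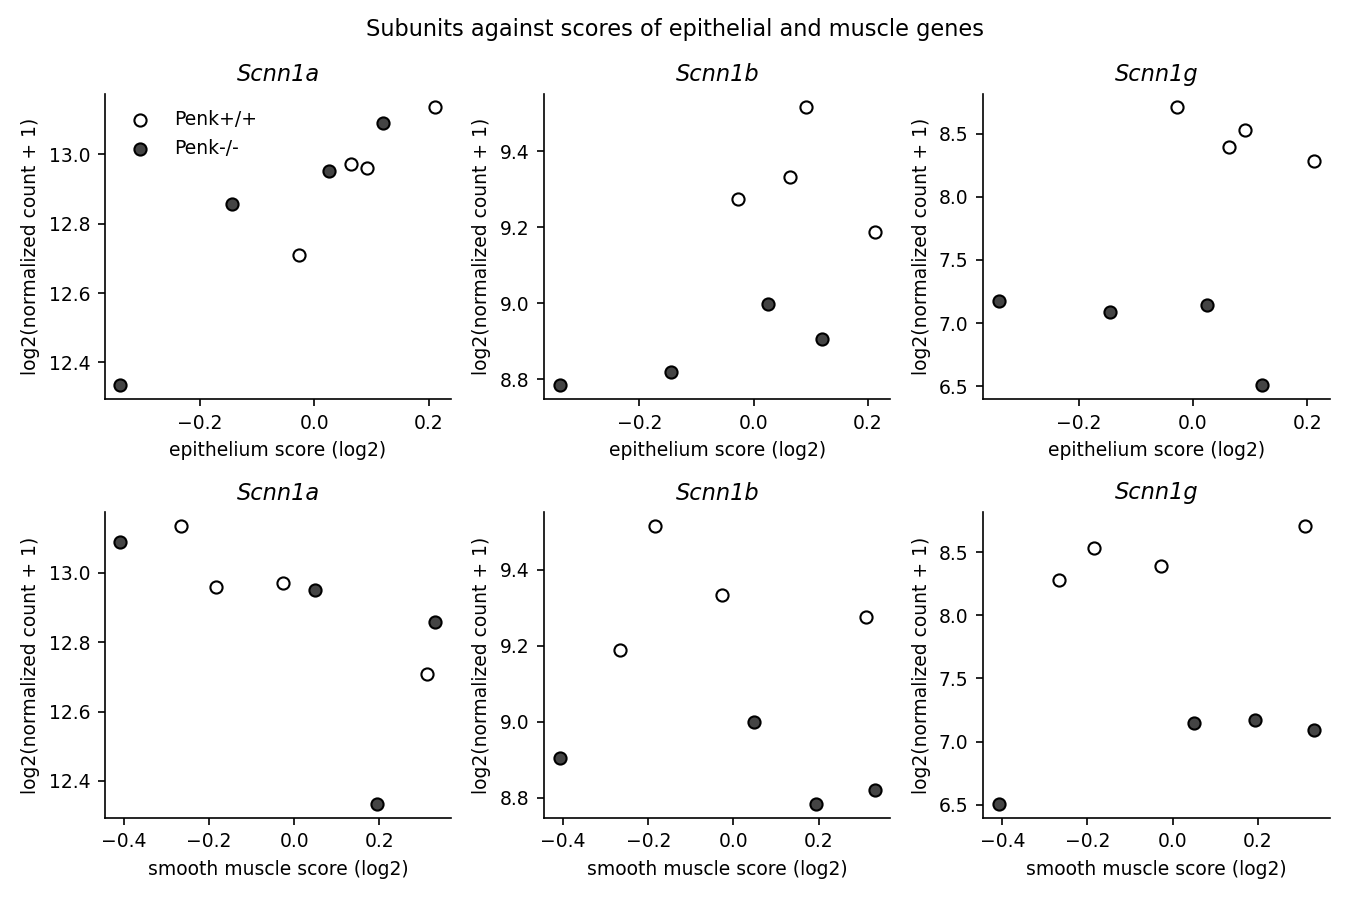
log2(normalized count + 1) of the 3 subunit genes (vertical axes) against the epithelial score (upper row) and the smooth muscle score (lower row) in each Penk+/+ (open circles) and Penk-/- (filled circles) library. *Scnn1a* increases with the epithelial score in both groups (r within genotypes 0.956). *Scnn1g* is lower in every Penk-/- library than in every Penk+/+ library. The epithelial score runs from -0.34 to 0.12 in Penk-/- and from -0.03 to 0.21 in Penk+/+ libraries, and these ranges overlap.

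The genes whose pattern within genotypes was most like that of *Scnn1g* among 19126 genes were *Aff2* (r = 0.988), *Cct7* (0.986), *Cabp1* (0.983), *Nop16* (0.977) and *Plat* (0.969). For *Scnn1b* they were *Sephs2* (r = 0.973), *Asic3* (0.972), *Nfe2* (0.967), *Cntn4* (0.965) and *Trpt1* (0.958). These are the highest of many values over 8 libraries and are given as a description. *Asic3* codes for an acid-sensing channel of the same superfamily as the epithelial sodium channel, and had 26.8 and 29.4 normalized counts on average in Penk-/- and Penk+/+ chimeras.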

How the data were processed

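Colonic RNA of 8 chimeras (4 per genotype) was sequenced by the authors from stranded, paired-end poly-A libraries and aligned with STAR 2.7.8a on GRCm39. The values the authors deposited are normalized counts (a signal per gene and library), and their differential analysis used DESeq2 1.30.0. All values (100%) were whole multiples of 1 step per library within 0.01 read, which gave the reads used for depth, TPM and voom. Gene names and positions were those of GENCODE for GRCm39 (25776 of 26008 genes named).

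The comparison used limma 3.58.1 (R 4.3.3, eBayes with trend, two-sided) on log2(value + 1) for genes with a mean of at least 10, with Benjamini-Hochberg adjustment; the log2 scale understates changes of low genes. The limma fit was tested on simulated data. Scores, correlations and exact permutations used Python 3.11.15 with numpy 2.4.6 and scipy 1.17.1. The members and lists were chosen with earlier results of these data known. Genes named besides the members were, in each list, the 3 with the smallest p, and the 5 with the highest r with *Scnn1g* and *Scnn1b*. One gene that this rule names is not reported here. Alternatives were other pseudocounts, filters and normalizations, covariates, a replicate block, voom (added after the data were seen) and leaving out libraries.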

Additional observations from a re-analysis of the deposited data

Results flagged for a closer look

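In the Penk-/- group replicate 1 had the lowest *Scnn1g*, with 89.9 normalized counts against 135, 140 and 143 in the other 3 libraries of the group. The gap to the nearest library was 0.848 of the whole range of the group, above Dixon's 95% critical value for 4 samples. Of the 32 groups of 4 examined this was the only 1 so far apart, where chance gives about 1.6. Without this library the log2 fold change of *Scnn1g* was -1.34.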

How the results depend on the processing

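The log2 fold changes of *Scnn1g* (-1.63 to -1.34) and of *Scnn1b* (-0.50 to -0.36) stayed below 0 under the 20 alternatives, whereas *Scnn1a* was above 0 without Penk-/- replicate 3 (0.02) and without the 2 libraries with the most *Pbsn* (0.03). Genes at an adjusted p below 0.05 numbered 0 in the report and 1 with quantile normalization, 1 with the epithelium minus smooth muscle score as a covariate, 1 with the replicate block, 2 with voom and library weights, and 0 to 6 when each library was left out (6 without Penk-/- replicate 1). The covariate also put 1 gene, *Scnn1g*, past a stricter pair of thresholds, a log2 fold change beyond 1 in size and an adjusted p below 0.01. Members among them were 1 (*Scnn1g*) with quantile normalization, with the covariate, with library weights and without Penk-/- replicate 1, and 0 to 1 over the libraries left out. The contrast chose the members, so nothing is read from this, and the causes were not tested. Of the pathway genes 0 were called under every alternative run.

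The replicate block gave 2938 genes and 22 pathway genes at an unadjusted p below 0.05, against 1842 and 9. Same-numbered libraries correlated between -0.32 and 0.145, with 1 of 4 pairs over 0.1, so the numbers are not treated as pairs. Covariation with the block could not be fitted, and the 3 planned count models were not run.

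For *Scnn1b* and *Scnn1g*, r turned to -0.29 with quantile normalization and -0.095 as rho, and ran from -0.207 to 0.264 with libraries left out. For *Scnn1a* and *Scnn1b* it was 0.644 with quantile normalization, -0.127 without the 2 libraries with the most *Pbsn* and -0.033 to 0.619 with libraries left out. With libraries left out the score differences ran from -0.238 (without Penk-/- replicate 1) to -0.084 (without Penk-/- replicate 3) for epithelium, -0.013 to 0.233 for smooth muscle, -0.13 to -0.010 for interstitial cells of Cajal, -0.277 to -0.013 for enteric neurons (exact permutation p = 0.0286 without Penk-/- replicate 3, the smallest possible), -0.175 to 0.216 for leukocytes, -1.47 to 1.47 for accessory gland and -0.092 to 0.042 for posterior HOX genes. No direction is read from these. *St14* and *Atp1b1* moved to -0.13 and -0.15 with quantile normalization, and *St14* ran from -0.30 to -0.12 with libraries left out. The precision rests on 4 mice per genotype, and how much of the spread comes from depth was not tested. *Scnn1g* rests on as few as 89 reads.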
